A study of Mus musculus with 6 samples.

Results

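The AP-1 and EGR immediate early factors of mouse embryonic fibroblasts (MEFs) were followed as 10 genes, chosen by symbol from the 55335 genes of the count table. They were the Fos family (Fos, Fosb, Fosl1 and Fosl2), the Jun family (Jun, Junb and Jund), the zinc finger factors Egr1 and Egr2, and Ier2. All 10 had enough reads to be tested.

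RNA-seq was performed on WT MEFs that had crossed a transwell membrane with 3 μm pores 15 h after seeding (Confine) and on parental MEFs (Ctrl). The labels give a culture medium with serum for every sample, and whether both sides of the membrane held serum is not given in the sources used here for this experiment. The deposited table has 3 columns per group, of which those for Confine replicates 1 and 2 are equal in every gene. These 2 were counted as 1 library, named Confine 1 here, which left 3 Ctrl and 2 Confine libraries of 22287210 to 32537550 counts. Confine holds only the cells that had passed the pores, the number of embryos or clones behind the MEFs is not given in the sources used here, and the labels give both groups the same seeding protocol, so transmigration and any difference in handling before lysis cannot be told apart. Nothing states that the replicates were separate cultures, so the p-values measure only the spread between these libraries.

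The fibroblast label was checked against marker genes. Of 12 fibroblast markers 10 were tested, and the summed level of all 12 was 9938 to 10984 normalized CPM in Ctrl and 18355 to 18997 in Confine. At an adjusted p under 0.05 in edgeR, 7 of the 10 rose, none fell and 3 did not pass, beside 12.8% up and 10.2% down among all genes. The sum is set by the abundant markers and does not hold for each of them. Normalized CPM is the read count of a gene scaled to the size of its library, with that size adjusted by the TMM method. Thy1, a surface protein of many fibroblasts, had 2 counts over all libraries, and Fap, a fibroblast surface protease, had 1. Leukocyte markers summed to 7.61 to 8.5 CPM in Ctrl and 18.5 to 26.0 CPM in Confine, with 3 of 11 tested and Adgre1, Cd3e and Tyrobp among those at 0. The 3 tested leukocyte markers went different ways: Cd68, a lysosomal protein, rose from 3.14 ± 0.773 CPM (SD, n = 3) to 20.0 ± 4.78 CPM (SD, n = 2), Csf1r, the receptor of a macrophage growth factor, rose from 0.52 to 1.45 CPM on average, and Lyz2, a lysozyme of myeloid cells, fell from 4.26 ± 0.864 to 0.684 ± 0.155 CPM. Endothelial markers summed to 0.595 to 1.36 CPM in Ctrl and 2.43 to 2.7 CPM in Confine, with 1 of 7 tested and Emcn and Cldn5 at 0. The 1 tested, Vwf, rose from 0.394 to 2.49 CPM on average. Pecam1, Kdr, Cdh5 and Tek, at 0.197 CPM or less on average, had lower means in Confine. These rested on few counts with overlapping groups and were not tested. No epithelial marker was tested, with Epcam, Krt18 and Cldn4 at 0. In bulk RNA, fewer cells of a type and less RNA per cell cannot be told apart. The part of these markers in the results on the 10 factors was not tested.

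AP-1 is a dimer of leucine zipper proteins that binds short palindromic DNA sites. Jun proteins can pair with each other or with Fos proteins, whereas Fos proteins need a Jun partner, and Fosl1 (Fra-1) and Fosl2 (Fra-2) lack the strong activation domain of Fos and Fosb. In fibroblasts, serum, growth factors and mechanical stimuli switch on Fos, Fosb, Egr1, Egr2 and Ier2 within minutes, and their short-lived mRNAs then decay, while Fosl1 and Fosl2 follow later and last longer. Egr1 and Egr2 are zinc finger factors that bind GC-rich sites and are restrained by the corepressors Nab1 and Nab2.

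The promoters of Fos, Fosb and Jun are shown because these genes had large changes and are textbook examples of fast control by DNA elements next to the start site. The RefSeq (GRCm38.p6) promoters used here held an entry for 7 of the 10 genes and none for Fosl1, Egr1 and Ier2. The up to 250 bases before the RefSeq start are given 5′ to 3′. Capitals mark every match to the motifs searched, and for Fosb the window stops short of an annotated exon.
Fos, chr12:85473640-85473889, plus strand: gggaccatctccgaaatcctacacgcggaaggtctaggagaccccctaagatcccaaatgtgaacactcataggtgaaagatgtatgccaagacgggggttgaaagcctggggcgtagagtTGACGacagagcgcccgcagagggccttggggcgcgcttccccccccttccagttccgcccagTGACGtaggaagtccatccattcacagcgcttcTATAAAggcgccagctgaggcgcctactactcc
Fosb, chr7:19310052-19310295, minus strand: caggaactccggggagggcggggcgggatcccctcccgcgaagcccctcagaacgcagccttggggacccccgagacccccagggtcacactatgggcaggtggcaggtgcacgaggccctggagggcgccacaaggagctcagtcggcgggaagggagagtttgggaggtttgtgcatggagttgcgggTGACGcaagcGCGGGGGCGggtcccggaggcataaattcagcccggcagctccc
Jun, chr4:95052223-95052472, minus strand: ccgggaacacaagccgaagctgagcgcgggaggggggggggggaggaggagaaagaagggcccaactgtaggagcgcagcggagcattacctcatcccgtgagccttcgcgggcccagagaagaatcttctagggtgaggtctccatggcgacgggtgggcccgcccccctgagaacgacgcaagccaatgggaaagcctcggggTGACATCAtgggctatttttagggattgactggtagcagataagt

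The Fos promoter held TGACG, the CRE core to which CREB and ATF factors bind, at -129 to -125 and at -66 to -62 from the start site, and a TATAAA box at -33 to -28. The Fosb promoter held TGACG at -60 to -56 and the EGR site GCGGGGGCG at -50 to -42. The Jun promoter held TGACATCA, the AP-1 variant of the jun promoter, at -45 to -38. Both strands of 32536 RefSeq promoters of the same length were searched, and TGACG stood in 17.85% of them, TATAAA in 12.31%, GCGGGGGCG in 2.6% and TGACATCA in 2.84%. The other motifs searched were the full CRE TGACGTCA (1.56%), in which TGACG is contained, the AP-1 site TGAGTCA (4.45%), the EGR site GCGTGGGCG (0.54%) and the CArG box (1.48%), to which serum response factor binds. None of these other motifs matched within the windows of the 3 promoters shown. Bases further upstream were not searched, so the lack of a match, for the CArG box too, holds for these windows only. Matches were not limited to the 3 promoters shown. TGACG also stood in the Junb promoter, at -106 to -102, and TGACG and a CArG box stood in Egr2 promoters. Neither Junb nor Egr2 had an adjusted p under 0.05 in edgeR. A match is a run of letters in the window and was not tested as a binding site.

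Within AP-1, Fos and Fosb were downregulated in Confine while Fosl1, Fosl2, Jun and Jund were upregulated, and Junb, Egr1, Egr2 and Ier2 did not pass the test. At an adjusted p under 0.05 (edgeR, Benjamini-Hochberg adjusted over all genes tested), 4 of the 10 rose and 2 fell. Of all 15881 genes tested, 12.8% rose and 10.2% fell by the same rule. With an absolute log2 fold change above 1.5 required as well, 2 rose (Fosl1 and Jun) and 2 fell (Fos and Fosb), against 4.89% and 3.11% of all genes. Every Confine library lay above every Ctrl library for 5 of the 10 (Fosl1, Fosl2, Jun, Jund and Egr2) and below for 2 (Fos and Fosb), against 25.9% and 23.6% of all genes.

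**Figure D1:**
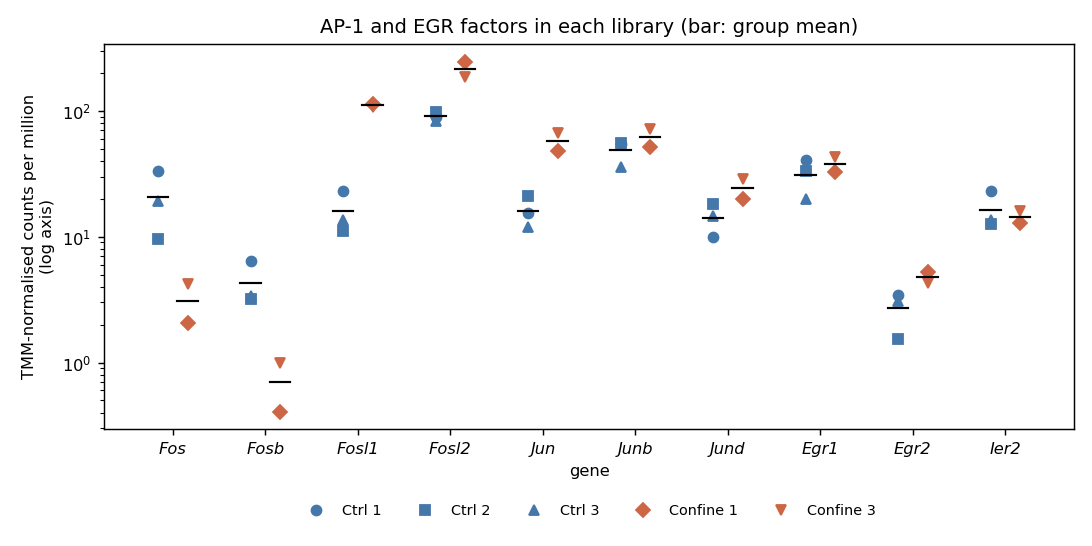
Normalized CPM of each of the 10 factors in the 3 Ctrl and 2 Confine libraries, on a log axis; each point is 1 library and the bar is the group mean. Fos and Fosb lie lower in both Confine libraries, and Fosl1, Fosl2, Jun, Jund and Egr2 lie higher in both.

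Fos, the founding member of the family and a partner of Jun in AP-1, lies on chromosome 12 at 85473890 to 85477273 (GRCm38, GENCODE M21). It had 961, 253 and 452 counts in Ctrl and 61 and 105 counts in Confine. After normalization this was 33.2, 9.56 and 19.2 CPM in Ctrl against 2.06 and 4.17 CPM in Confine. Both Confine libraries lay below the lowest Ctrl library, although Ctrl itself spread over 3.47-fold from the lowest to the highest. The mean was 20.7 ± 11.9 CPM (SD, n = 3) in Ctrl and 3.11 ± 1.49 CPM (SD, n = 2) in Confine. For Fos, edgeR gave a log2 fold change of -2.74 (SE 0.42, 95% interval -3.62 to -1.86, adjusted p = 8.10e-05), a fitted fold of 6.68 toward Ctrl. Without Confine 3 it was -3.33, and without Confine 1 it was -2.31.

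Fosb, which shares the activation domain of Fos and gives a shorter form by splicing, lies on chromosome 7 at 19302696 to 19310051. It was measured at 6.39, 3.17 and 3.36 CPM in Ctrl and at 0.405 and 0.993 CPM in Confine, from 185, 84 and 79 against 12 and 25 counts. The lowest of these counts, 12 in Confine 1, has an exact 95% Poisson interval of 6.2 to 21.0 counts, or 0.209 to 0.708 CPM, which covers counting error only. Even the upper bound lay below every Ctrl library of Fosb. Its log2 fold change in edgeR was -2.64 (SE 0.45, 95% interval -3.58 to -1.71, adjusted p = 2.30e-04). The estimate for Fosb was -3.4 without Confine 3 and -2.11 without Confine 1.

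Fosl1, which encodes Fra-1, a factor known for its part in the motility of mesenchymal and tumour cells, lies on chromosome 19 at 5447547 to 5455946. It had 672, 291 and 320 counts in Ctrl and 3351 and 2710 counts in Confine. After normalization Fosl1 stood at 23.2, 11.0 and 13.6 CPM in Ctrl and at 113.0 and 108.0 CPM in Confine. The 2 Confine libraries were close to each other and lay far above Ctrl, with means of 110.4 ± 3.97 CPM (SD, n = 2) and 15.9 ± 6.43 CPM (SD, n = 3). Fosl1 had the largest rise of the 10 factors, with a log2 fold change of 2.79 in edgeR (SE 0.25, 95% interval 2.27 to 3.31, adjusted p = 1.64e-07). Of its 2033 exonic bases 1163 lie opposite exons of Ccdc85b, which has 243, 223 and 191 counts in Ctrl and 744 and 773 in Confine, and whether counting used the strand is not given in the sources used here. Reads of Fosl1 and Ccdc85b in that stretch can therefore not be told apart if it did not.

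Fosl2, which encodes Fra-2, lies on chromosome 5 at 32135801 to 32157842. It was measured at 90.2, 97.3 and 83.7 CPM in Ctrl and at 247.0 and 187.0 CPM in Confine. The Ctrl libraries of Fosl2 were tight, within 1.16-fold, and both Confine libraries lay above them. Its log2 fold change in edgeR was 1.26 (SE 0.18, 95% interval 0.88 to 1.65, adjusted p = 5.09e-05), which is 2.4-fold and short of the cutoff of 1.5.

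Jun, the member that activates its own promoter through AP-1, lies on chromosome 4 at 95049034 to 95052222. It had 15.3, 21.2 and 12.0 CPM in Ctrl and 48.4 and 66.4 CPM in Confine. Every Confine library exceeded every Ctrl library. The log2 fold change of Jun in edgeR was 1.83 (SE 0.23, 95% interval 1.35 to 2.3, adjusted p = 8.81e-06). The antisense gene Junos faces 232 of the 3189 exonic bases of Jun and went from 37, 50 and 32 counts to 306 and 299 counts.

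Junb, which often antagonises Jun in growth control, had 54.6, 55.1 and 36.1 CPM in Ctrl and 52.1 and 71.3 CPM in Confine. The groups overlapped, and the log2 difference of 0.34 (95% interval -0.11 to 0.79, edgeR adjusted p = 0.277) did not pass the test. Jund, the member of the family with the steadiest expression in most cells, had 9.88, 18.1 and 14.6 CPM in Ctrl and 19.9 and 28.8 CPM in Confine. Its Confine libraries lay above the highest Ctrl library, Confine 1 only just. Jund rose by 0.78 on the log2 scale (SE 0.24, 95% interval 0.27 to 1.29, edgeR adjusted p = 0.0253). This call was lost without Ctrl 1 (adjusted p = 0.129) and without Confine 3 (adjusted p = 0.38), and also when libraries were scaled by their totals only (adjusted p = 0.0985) or with a replicate block in 1 of 2 numberings (adjusted p = 0.187). Of the 2301 exonic bases of Junb, 173 lie opposite exons of Prdx2, an abundant peroxiredoxin at 1040.5 ± 110.3 CPM (SD, n = 3) in Ctrl and 1003 ± 228 CPM (SD, n = 2) in Confine. If counting did not use the strand, reads of Junb and Prdx2 in that stretch cannot be told apart. The same holds for Jun and Junos.

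**Figure D2:**
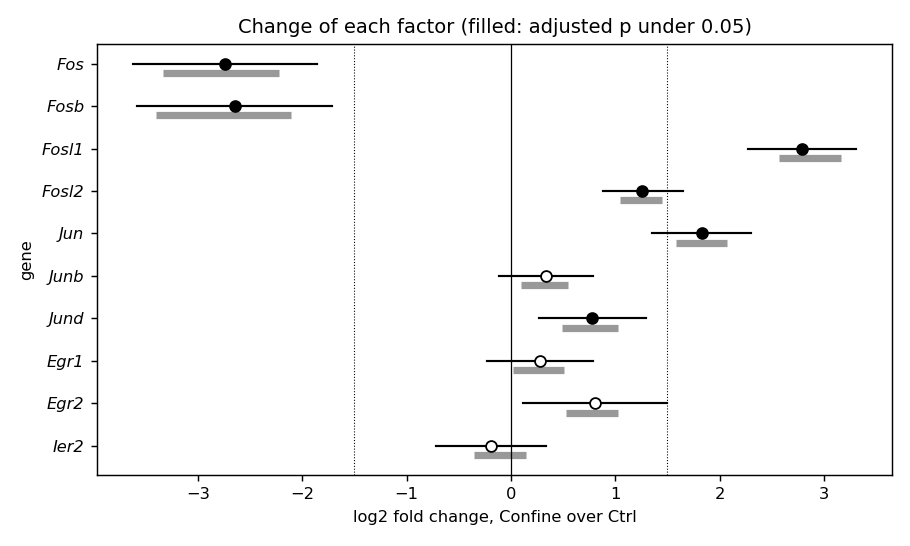
Log2 fold change of Confine against Ctrl for the 10 factors. Points are edgeR estimates, thin black lines are their 95% intervals, and filled points had an adjusted p under 0.05. Thick grey bars give the range of the estimate when 1 library was left out, and dotted lines mark an absolute value of 1.5. Fos and Fosb lie near -2.7, Fosl1 and Jun beyond 1.5, and the intervals of Junb, Egr1 and Ier2 span 0.

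Egr1, the best known serum-induced factor of the EGR family, had 40.6, 33.1 and 19.9 CPM in Ctrl and 32.9 and 42.9 CPM in Confine. The groups overlapped, and the log2 difference was 0.28 (95% interval -0.23 to 0.79, edgeR adjusted p = 0.457). Egr2, known for its role in Schwann cell myelination and in lymphocytes, was low, at 3.45, 1.55 and 3.1 CPM in Ctrl and 5.2 and 4.29 CPM in Confine. Both Confine libraries were higher than all Ctrl libraries, yet the log2 difference of 0.81 (95% interval 0.12 to 1.5, edgeR adjusted p = 0.0846) missed the threshold over all genes. Ier2, a small nuclear immediate early protein, had 23.2, 12.6 and 13.5 CPM in Ctrl and 12.9 and 16.0 CPM in Confine. The Ier2 groups overlapped, with a log2 difference of -0.19 (95% interval -0.72 to 0.34, edgeR adjusted p = 0.647). The intervals of Junb and Egr1 reach up to 0.79 and that of Ier2 down to -0.72, so equal levels were not shown for these 3 factors.

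The order of the 10 factors was compared as CPM per kilobase of exon, since only values divided by length can be set side by side between genes. In Ctrl the mean levels were highest for Junb (21.1), followed by Ier2 (10.8), Fosl2 (9.34), Fos (8.78), Jund (8.51), Fosl1 (7.84), Egr1 (6.96), Jun (5.06), Egr2 (0.795) and Fosb (0.69). Of the neighbours in this order, the libraries were apart only between Junb and Ier2 and between Jun and Egr2. In Confine the order was Fosl1 (54.3), Junb (26.8), Fosl2 (22.4), Jun (18.0), Jund (14.6), Ier2 (9.48), Egr1 (8.45), Egr2 (1.4), Fos (1.32) and Fosb (0.112). There the libraries were apart between Fosl1 and Junb, Jund and Ier2, Egr1 and Egr2, and Fos and Fosb. By this length Fosl1 moved from place 6 to place 1 and Fos from place 4 to place 9. The place of Fosl1 depends on its length, as 1163 of its 2033 exonic bases lie opposite exons of Ccdc85b. A length of 870 bases, without that stretch, would raise its level in every library, and the order with it was not computed.

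Members of a family compete for the same partners, so the make-up of each family was computed within each library. Per length, Fos held 39.3%, 20.3% and 34.0% of the summed Fos family level in the Ctrl libraries and 1.07% and 2.39% in Confine. Fosb went from 2.54% ± 0.308 (SD, n = 3) to 0.147% ± 0.0958 (SD, n = 2). Fosl1 held 31.8%, 27.0% and 27.8% in Ctrl and 67.8% and 71.4% in Confine. Fosl2 held 37.4% ± 12.2 (SD, n = 3) and 28.5% ± 3.58 (SD, n = 2), with overlapping groups although its own level rose. The summed level of the family went from 35.9, 20.0 and 24.1 CPM per kilobase in Ctrl to 82.2 and 74.1 in Confine. By this length the Fos family of Confine was mostly Fosl1 and Fosl2, and that of Ctrl was divided among Fos, Fosl1 and Fosl2. These shares depend on the length taken for Fosl1, of whose 2033 exonic bases 870 do not lie opposite another gene. The shorter length would give Fosl1 a larger share in every library, those of Ctrl included.

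The Fosl1 to Fos ratio is free of the normalization, which cancels within a library, but not of the lengths used. It was 0.809, 1.33 and 0.819 in Ctrl and 63.6 and 29.9 in Confine. On the log2 scale the ratio was -0.06 ± 0.41 (SD, n = 3) and 5.45 ± 0.77 (SD, n = 2), a difference of 5.51 (two-sided exact permutation p = 0.1, adjusted p = 0.15 over 9 measures). With 3 against 2 libraries 0.1 is the smallest p this test allows, so it cannot pass 0.05.

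In the Jun family, Junb held the largest share in every library. It held 68.9%, 57.8% and 55.7% of the summed level per length in Ctrl and 45.6% and 44.8% in Confine. Jun held 13.9%, 16.0% and 13.3% in Ctrl and 30.5% and 30.2% in Confine, with no overlap between the groups. Jund held 24.8% ± 7.01 (SD, n = 3) and 24.5% ± 0.756 (SD, n = 2). The exact permutation p was 0.1 for the shares of Fos, Fosb, Fosl1, Jun and Junb (adjusted p = 0.15), 0.5 for Fosl2 and 1.0 for Jund. The ratio of the summed Fos family to the summed Jun family was 1.04, 0.483 and 0.854 in Ctrl and 1.65 and 1.07 in Confine (exact permutation p = 0.2).

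**Figure D3:**
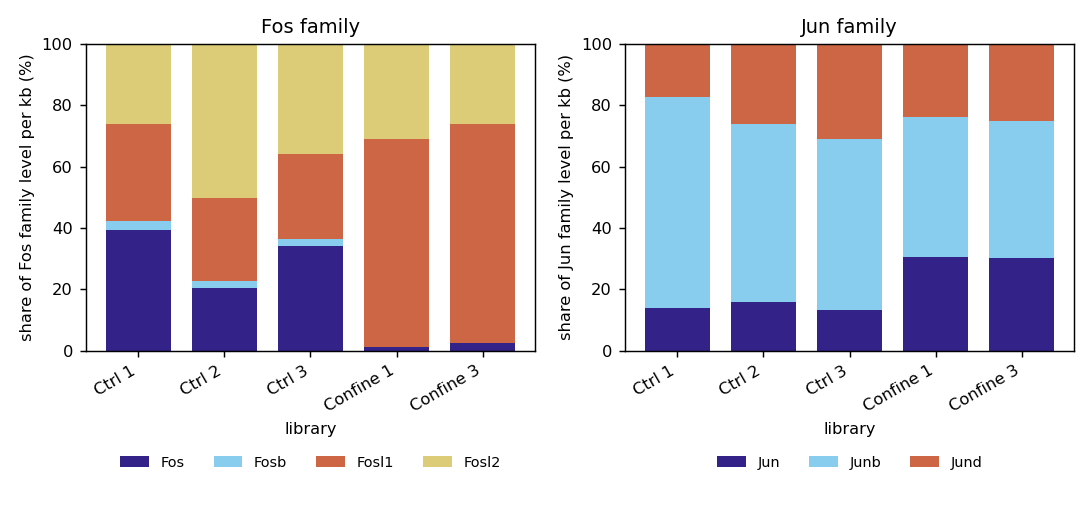
Share of each member in the summed level per kilobase of exon of the Fos family and of the Jun family, in percent, for each of the 3 Ctrl and 2 Confine libraries. Fosl1 takes 67.8% and 71.4% of the Fos family in Confine, and Jun about 30% of the Jun family.

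The gene structure of the factors was set beside these changes. The 4 Fos family genes have 4 exons in their longest coding transcript, Egr1 and Egr2 have 2, and Jun, Junb, Jund and Ier2 have 1, as do 2.69% of 12197 tested coding genes. ATTTA, the core of the AU-rich elements that shorten the life of many immediate early mRNAs, was counted in the 3′ UTR. Fos held 4 in 815 bases, or 4.91 per kilobase, more than 93.7% of 11665 tested genes, whose median was 1.37. Junb (4.12) and Jun (3.24) also lay high, at 90.3% and 82.9%, while Fosl1 (1.57), Egr1 (1.64) and Fosl2 (1.72) lay nearer the median. Fosb had 0.47 per kilobase and Ier2 none. Fos and Fosb, which both fell, thus lay at 93.7% and 30.6% of this scale.

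The genes around the factors were taken from 7 lists. These lists were chosen with earlier results of these data known, so their counts are a description only. Of the dimer partners of AP-1, 10 of 12 were tested, with 3 upregulated, 3 downregulated and 4 not passing (median log2 fold change -0.35, against a median near 0 over all genes tested, of which 12.8% rose and 10.2% fell). The upward calls of this list went from 3 to 1 with library totals as the only scaling, without Confine 1 and without Confine 3. Maff, a small Maf protein without an activation domain, rose by 2.72 on the log2 scale (edgeR adjusted p = 3.99e-07), from 2.97, 4.2 and 2.21 CPM to 18.1 and 23.3 CPM. Jdp2, a repressor that pairs with Jun, fell by 1.29 (adjusted p = 0.00724) and Maf by 0.93 (adjusted p = 0.00541). Jdp2 did not pass without Confine 1 (adjusted p = 0.0918), and Maf did not without Confine 3 (adjusted p = 0.15). Of the EGR relatives and corepressors 3 of 5 were tested, with 1 upregulated, none downregulated and 2 not passing (median log2 fold change -0.12). Among all genes tested 12.8% rose and 10.2% fell. Nab2, which restrains EGR factors and is itself an EGR target, rose by 0.82 (edgeR adjusted p = 0.00186).

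Of 30 other immediate early genes, 15 rose, 1 fell and 14 did not pass (median log2 fold change 0.73), beside 12.8% up and 10.2% down among all genes. The largest changes were those of Nr4a3, an orphan nuclear receptor, Errfi1, a feedback inhibitor of the EGF receptor, Ier3 and Ptgs2, the inducible cyclooxygenase. Errfi1 rose by 3.2 (edgeR adjusted p = 1.27e-09), from 8.26, 10.9 and 8.46 CPM to 86.6 and 82.7 CPM. Ier3 rose by 2.79 (adjusted p = 2.92e-09), from 194.0, 154.0 and 182.0 CPM to 1198.0 and 1243.0 CPM. Ptgs2 rose by 2.73 (adjusted p = 1.04e-08). Nr4a3 rose (adjusted p = 0.00457) on 1, 2 and 0 counts in Ctrl and 17 and 13 in Confine, a ratio of 14.4 with an exact 95% interval of 4.48 to 73.8 for counting error. It did not pass without Confine 1 (adjusted p = 0.0667), and its log2 fold change went from 3.69 to 4.54 without Ctrl 2. The 1 gene that fell was Arc, a synaptic immediate early gene, with a log2 fold change of -1.6 (adjusted p = 0.0175). No gene of this list fell without Ctrl 1, without Confine 1, without Confine 3 or with the replicate block and the repeated library as number 2, so the call of Arc was lost in these fits, and 3 genes fell without Ctrl 2.

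Of 18 genes upstream of the factors, 2 rose and 16 did not pass, a share near the 12.8% of all genes that rose. Map2k1, the kinase that activates ERK, rose by 1.15 (edgeR adjusted p = 3.05e-04) and Crem, a CRE-binding factor, by 1.01 (adjusted p = 0.00329), a call that Crem lost without Confine 1 (0.74, adjusted p = 0.112). Of 14 known AP-1 targets, 8 rose, 1 fell and 5 did not pass (median 0.64), beside 12.8% up and 10.2% down among all genes. The secreted matrix proteases led them. Mmp13 had 5.04, 4.01 and 2.89 CPM in Ctrl and 425.0 and 171.0 CPM in Confine, a log2 fold change of 6.22 (adjusted p = 2.47e-10) that was 5.42 without Confine 1. Mmp3 had 50.7, 46.6 and 46.3 CPM in Ctrl and 3721.0 and 1915.0 CPM in Confine, a log2 fold change of 5.88 (adjusted p = 2.33e-11). Mmp10 and Mmp9 rose by 5.31 and 4.18, and Ccnd1, the G1 cyclin, fell by 0.67 (adjusted p = 0.0202). The call of Ccnd1 was lost without Ctrl 1 and with the replicate block and the repeated library as number 2.

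Of 10 known EGR1 targets, 8 rose, none fell and 2 did not pass (median 1.06), beside 12.8% up among all genes. Egr1 itself did not pass the test, and EGR1 activity was not tested. Ptges, which makes prostaglandin E2, rose by 2.48 (edgeR adjusted p = 2.52e-06), Tgfb1 by 1.6 (adjusted p = 5.20e-04) and Pdgfa by 1.17 (adjusted p = 1.90e-04). Hpse, the heparanase, rose by 2.94 (adjusted p = 0.00347), on 2, 12 and 1 counts in Ctrl and 32 and 48 in Confine. It did not pass without Confine 3 (2.48, adjusted p = 0.0968) and stood at 4.59 without Ctrl 2, and the EGR1 targets that rose went from 8 to 5 without Confine 3. Of the heat shock genes 7 of 9 were tested, and 1 rose, 3 fell and 3 did not pass (median -0.35), beside 12.8% up and 10.2% down among all genes. Hsph1 fell by 1.08 (adjusted p = 6.57e-04), Hspd1 by 0.83 and Hspe1 by 0.8, and Dnajb1 rose by 0.67. Hspe1 did not pass without Confine 1 (adjusted p = 0.0587) or without Confine 3 (adjusted p = 0.084). Dnajb1 did not pass without Confine 1 (adjusted p = 0.164), without Confine 3 (adjusted p = 0.062) or with library totals as the only scaling (adjusted p = 0.0769). Over the 7 lists together, with Nab2, which stands in 2 of them, counted once, 91 of 97 genes were tested, of which 37 rose, 8 fell and 46 did not pass (median 0.4).

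**Figure D4:**
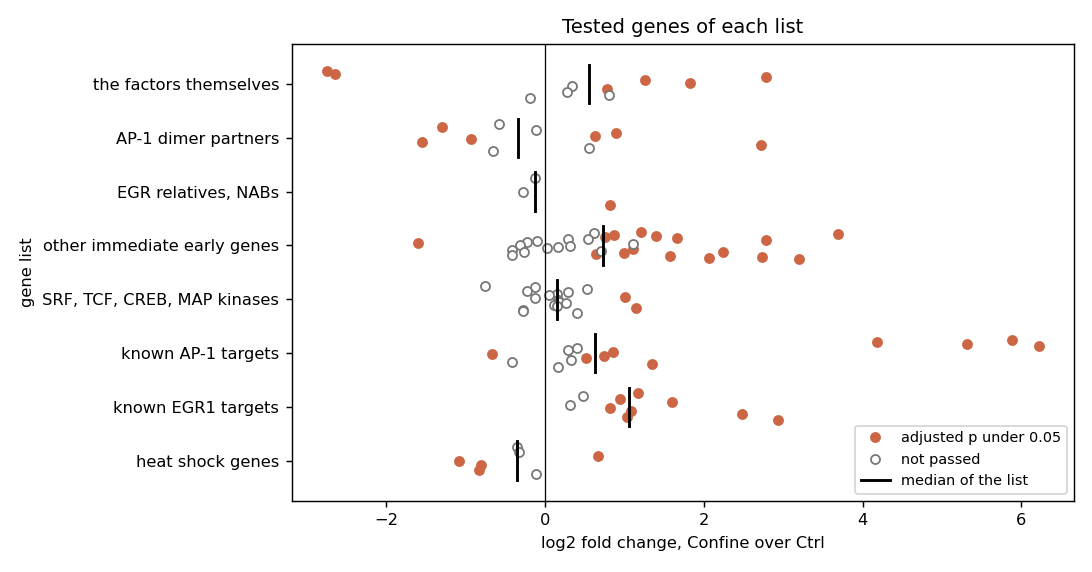
Log2 fold change in edgeR of each tested gene of the 7 lists beside the 10 factors; each point is 1 gene filled where the adjusted p was under 0.05, the short vertical line is the median, and the vertical axis names the list. The AP-1 targets reach 6.22, and the dimer partners, EGR relatives and heat shock genes have medians below 0.

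The spread within groups differed between the factors. The pooled within-group SD of log2 CPM was 0.84 for Fos, larger than in 95.1% of the genes tested, and 0.67 for Fosb, larger than in 91.2%. Fosl2 was the steadiest, at 0.19, and the other 7 lay between 0.34 and 0.52. In all, 9 of the 10 lay above the median of all genes, 0.26. In Ctrl the highest library was 2.11-fold above the lowest for Fosl1, 2.01-fold for Fosb, 2.04-fold for Egr1 and 2.23-fold for Egr2. Ctrl 1 was the highest Ctrl library for 6 factors (Fos, Fosb, Fosl1, Egr1, Egr2 and Ier2) and Ctrl 3 for none, against 27.9% and 32.2% of all genes. Without Ctrl 1 the log2 fold change was -2.22 for Fos (edgeR adjusted p = 1.73e-05) and -2.24 for Fosb (adjusted p = 7.23e-04).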

How the data were processed

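Polyadenylated RNA of 6 deposited samples of MEFs was sequenced from dUTP-marked libraries. The authors deposited raw counts per gene. Per the labels, processing used Trim Galore 0.6.10, HISAT2 2.1.0, SAMtools 1.5 and featureCounts with build mm10, and their settings, the annotation and the strand mode are not given in the sources used here. GENCODE M21 (GRCm38) holds 55154 of the 55335 gene identifiers, 54587 of them in the same version.

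Confine replicates 1 and 2 held identical counts and were used as 1 library. Columns that matched no sample numbered 0, and the repeated column entered the fit once. Libraries held 22287210 to 32537550 counts, and precision is limited for genes with low counts. The intervals of the edgeR log2 fold changes include the estimated spread between libraries. The exact intervals, for the lowest count of Fosb and for the ratio of Nr4a3, cover counting error only. The reads carried no molecular identifiers. Genes kept by filterByExpr (15881) were TMM-normalized and tested with edgeR 4.0.16 (quasi-likelihood, R 4.3.3, 3 residual degrees of freedom), with no replicate block although 3 against 3 libraries had been planned. P-values were adjusted by Benjamini-Hochberg over all genes tested. Calls used an adjusted p under 0.05, and a stricter rule added an absolute log2 fold change above 1.5. Family shares used normalized CPM per kilobase of merged exons and an exact permutation test. The script was tested on simulated data.

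The members and lists were chosen with earlier results of these data known. The genes named were all 10 members and up to 4 genes from each list. Those of a list had the largest absolute log2 fold change among its genes with an adjusted p under 0.05. Genes outside this rule were named after their values were seen. They were Thy1, Fap, the markers at 0, Vwf, Pecam1, Kdr, Cdh5, Tek, Ccdc85b, Junos, Prdx2, Cd68, Csf1r, Lyz2, Arc and Ccnd1. A gene of the dimer partner list that this rule names is not reported here. For Fos and Egr1, the 3 genes of at least 50 mean counts with the nearest profile were named too. Alternatives were DESeq2 1.42.0, limma-voom (limma 3.58.1), library size alone, other filters, both identical columns, a replicate block and leaving out each library. The correlation of the deviations of same-numbered libraries was 0.05 with the repeated library as number 1 and -0.05 as number 2. With so few libraries these values cannot show whether the libraries pair. The main fit did not treat them as pairs.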

Additional observations from a re-analysis of the deposited data

How the results depend on the processing

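Fos, Fosb, Fosl1, Fosl2 and Jun had the same sign and passed at 0.05 in all 14 fits (edgeR's, DESeq2's and limma-voom's), with log2 fold changes of -3.33 to -2.21, -3.4 to -2.11, 2.57 to 3.17, 1.05 to 1.45 and 1.58 to 2.07. Jund passed in 10 of 14 fits. It stood at 0.57 (adjusted p = 0.0985) with library size alone and at 0.56 (adjusted p = 0.187) with the replicate block and the repeated library as number 2, and at 0.49 to 1.03 when 1 library was left out. Egr2 passed with the identical columns as 2 samples (0.84, adjusted p = 0.0418) and with that replicate block (1.09, adjusted p = 0.0452), and ran from 0.53 to 1.03 when 1 library was left out. Ier2 changed sign, to 0.14, with that replicate block (adjusted p = 0.833) and without Ctrl 1 (adjusted p = 0.783), never passing the test, and ran from -0.35 to 0.14 when 1 library was left out. The causes of these changes were not tested.

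Over all genes, 2805 fell with library size alone, which moved the median log2 fold change by -0.21, and 2456 with the identical columns as 2 samples, and leaving out 1 library gave 1196 to 2411 genes up and 850 to 2015 down. The replicate block gave 2640 up and 2293 down with the repeated library as number 1, and 1448 up and 1080 down as number 2, with 1 residual degree of freedom. Of the list genes, 14 fell with the replicate block and the repeated library as number 1, and 5 to 12 when 1 library was left out. A left-out Confine library leaves 1, which is assumed to vary like Ctrl. The differences in family share (Confine minus Ctrl, in percentage points) were -3.14 for Fosb, 38.0 for Fosl1 and 14.6 for Jun with the longest transcript as length. Not divided by length, they were -14.2 for Fos, -2.98 for Fosb, 21.7 for Fosl1 and 19.8 for Jun. In an alternative chosen after seeing the data, bases opposite another gene were left out of the length only, with the counts unchanged. The differences were then -1.76 for Fosb and 35.6 for Fosl1. Reads from those bases stayed in the counts, so the overlap itself was not tested.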

Other observations

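The 3 tested genes whose profile over the 5 libraries was nearest to that of Fos were Matn4, Fosb and Calhm5, at root mean square distances of 0.25, 0.32 and 0.33 log2 units. For Egr1 they were Tap1, Crocc and E430024I08Rik, at 0.1, 0.13 and 0.13. With 5 libraries a near profile is a description only.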
